A study of Mus musculus with 6 samples.

Results

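The genes described here are 42 genes of the endoplasmic reticulum (ER) that fold secretory and membrane proteins, dispose of those that fail to fold, or signal that folding is failing. They were chosen by gene symbol from the 22105 named genes of the count table, with earlier results of these data known. All 42 have a row, and 41 had enough reads to be tested among 12288 genes in all. Derl3 did not, with 8, 0 and 0 raw counts in the DMSO libraries and 5, 3 and 6 in the P3FI-90 libraries. By role they comprise 11 chaperones and cofactors, 6 disulfide enzymes, 2 lectin chaperones, 9 sensors, proteases and transcription factors, 10 components of ER-associated degradation (ERAD) and 4 other ER membrane proteins.

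RNA–seq was performed on 4T1 cells, a murine triple–negative mammary carcinoma line, exposed in culture to DMSO, the solvent control, or to 10 µM P3FI-90 for 24 h. P3FI-90 is described by the study as a selective inhibitor of the histone demethylase KDM3B. There were 3 libraries per group, from a single line at 1 dose and 1 time, and both groups were grown in DMEM with serum. The labels do not say that the 3 libraries of a group came from separate cultures, so the p-values measure the spread between these libraries, which may be technical.

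Library totals ran from 31327094 to 37395732 counts. Libraries of 1 group differed by more than counting noise (chi-square per gene 5.39 to 8.36), and far less than libraries of different groups (350.5 to 394.3). The 6 epithelial markers were abundant in both groups, with a summed level of 110325 to 115967 normalized counts (counts scaled to a common library size by trimmed means) after DMSO and 56042 to 58704 after P3FI-90. Markers of other cell types were low. The leukocyte markers reported here summed to 368 to 434 and 279 to 401 normalized counts, nearly all from Cd68, with Adgre1 at 0 in every library. The 6 fibroblast markers summed to 1411 to 1479 and 1001 to 1096, mostly Pdgfra, with Lum at 0, and the 4 endothelial markers to 0 to 13.3 and 21.6 to 33.7. The part of the lower epithelial marker level in the results below was not tested.

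The ER folds proteins with the help of abundant lumenal chaperones, forms their disulfide bonds with protein disulfide isomerases and holds unfinished glycoproteins through the lectins calreticulin and calnexin. When unfolded proteins accumulate, the unfolded protein response is started by the membrane sensors IRE1 (Ern1), ATF6 and PERK (Eif2ak3). IRE1 splices the Xbp1 transcript, ATF6 is cut in the Golgi by the site-1 and site-2 proteases (Mbtps1 and Mbtps2), and PERK phosphorylates the initiation factor eIF2α, which favors translation of ATF4. XBP1 and ATF6 act on chaperone and ERAD genes, many of which carry an ER stress response element in their promoter. Gene-level counts do not measure Xbp1 splicing, ATF6 cleavage or eIF2α phosphorylation.

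P3FI-90 changed the ER genes in both directions. Of the 41 genes tested, 20 rose (48.8%), 15 fell (36.6%) and 6 did not pass the test, which leaves 35 called (85.4%) at an adjusted p under 0.05 in edgeR's quasi-likelihood test. Across all 12288 genes tested, 79.3% were called, 39.9% higher and 39.4% lower, so that most transcripts of these cells changed and a change is not particular to the ER genes. Log2 fold changes (P3FI-90 minus DMSO) ran from −1.42 for Pdia4 to 2.19 for Crebrf, with a median of 0.08 beside 0.01 over all genes tested. All 3 libraries of each group stood apart in 38 of the 41 genes, against 81.2% of all genes tested. P3FI-90 libraries were all above the DMSO libraries in 21 of these genes and all below in 17, and the groups overlapped for P4hb, Ero1a and Atf6b. In bulk RNA, fewer cells that express a gene and less of its RNA per cell cannot be told apart.

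**Figure D1:**
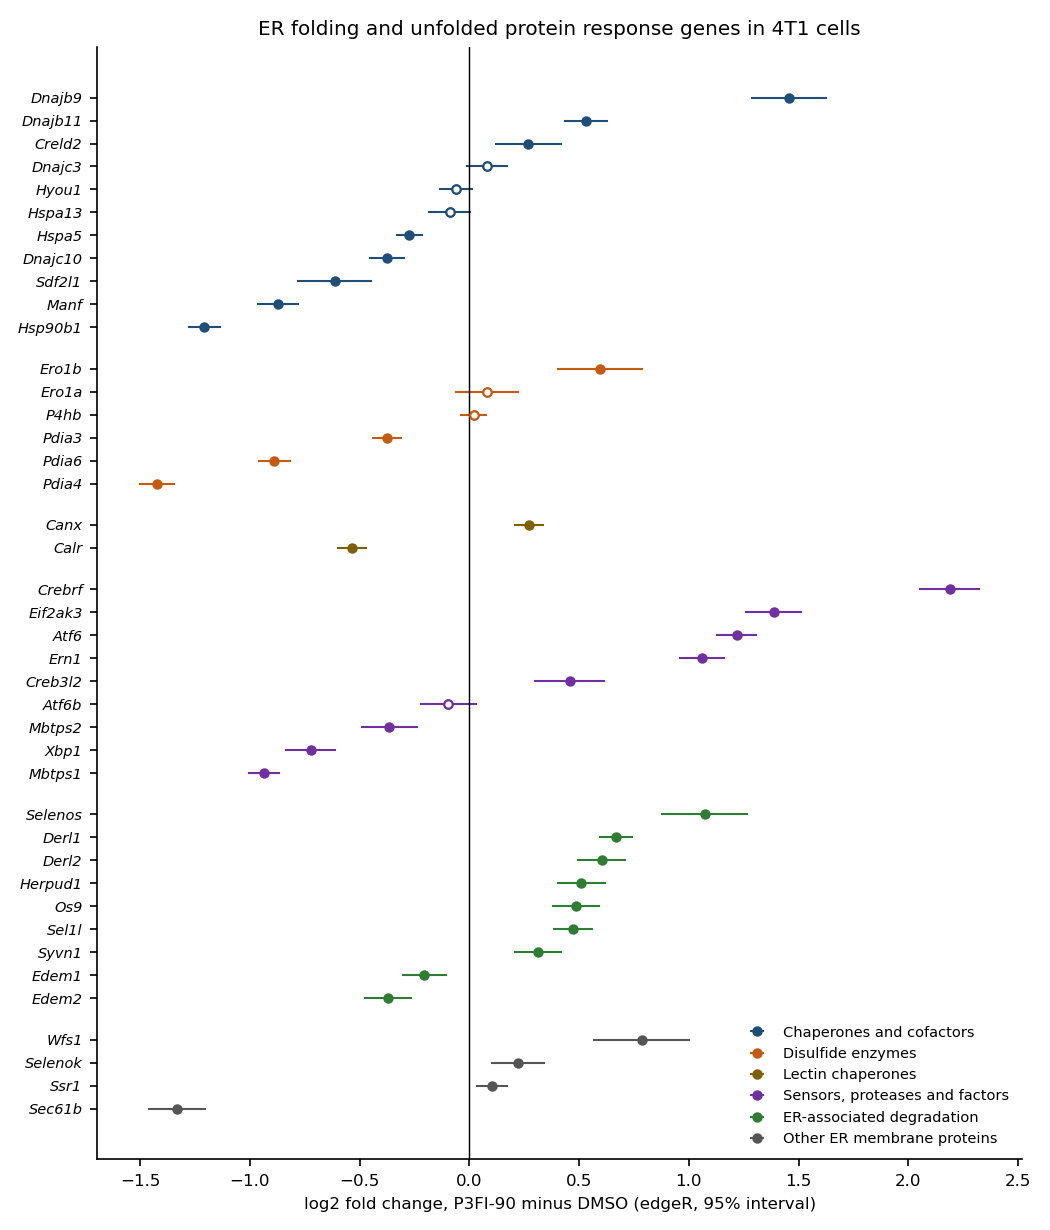
Log2 fold change (horizontal axis, P3FI-90 minus DMSO) of the 41 genes tested, grouped by role, with bars for the 95% confidence interval, filled circles for genes past an adjusted p of 0.05 and open circles for the 6 that were not. Crebrf stands farthest to the right at 2.19 and Pdia4 farthest to the left at −1.42, and each of the larger roles holds genes on both sides of 0.

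The scaling of the libraries bears on the smaller of these changes. The 42 genes took 0.875% ± 0.0193 (SD, n = 3) of all counts after DMSO and 0.874% ± 0.00186 after P3FI-90 (exact two-sided permutation test, p = 1, where 3 against 3 libraries cannot go below 0.1). Normalization by trimmed means (TMM), which gave factors of 0.928 ± 0.00147 for DMSO and 1.08 ± 0.0011 for P3FI-90, turned these shares into 330430 ± 7061 and 284535 ± 334 normalized counts, and the groups did not overlap (exact p = 0.1). Scaling by total counts instead moved the median log2 fold change of all genes from 0.01 to 0.23 and that of the ER genes from 0.08 to 0.30, with 25 genes higher and 13 lower. Changes are therefore given relative to the TMM scale.

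The ER genes were not picked by promoter sequence, but many chaperone and ERAD genes are known to carry an ER stress response element. Its share among them is therefore a description and no independent result. Windows of all genes include those of the ER genes. The ER stress response element (ERSE, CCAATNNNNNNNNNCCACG, on either strand) was present in 10 of 38 promoter windows of the ER genes (26.3%), each from 250 bases before to 50 after the start, against 39 of 32851 windows of all genes (0.119%). ERSE-II (ATTGGNCCACG) was found in 2 windows (5.26%) against 12 (0.0365%). Neither the UPRE core (TGACGTGG, in 0.676% of all windows) nor the CARE composite (TGATGNAAT, 0.965%) occurred in a window of the ER genes, and the CCAAT box by itself, which is part of the ERSE, occurred in 73.7% of them and in 37.4% of all windows. RefSeq windows (GRCm38.p6) were matched for 37 of the 42 genes, and Atf6, Hspa13, Hyou1, Manf and Derl1 had none. The elements below are shown because the same letters precede genes that fell, genes that rose and a gene that did neither. Not printed are the ERSE of Derl3, which was not tested, and the ERSE-II of Dnajb11, which lies after the start (from 8 to 18). Each is printed 5′ to 3′ on the strand of its gene with the element in capitals, reading CGTGG to ATTGG where it lies on the other strand.
Hspa5 (fell, log2 fold change −0.27, chr2:34772015-34772053, + strand, from −65 to −47): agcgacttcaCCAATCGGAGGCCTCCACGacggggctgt
Hsp90b1, far element (fell, −1.21, chr10:86705628-86705666, − strand, from −212 to −194): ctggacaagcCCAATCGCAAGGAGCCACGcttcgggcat
Hsp90b1, near element (chr10:86705523-86705561, − strand, from −107 to −89): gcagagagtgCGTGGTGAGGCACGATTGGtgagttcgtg
Pdia6 (fell, −0.89, chr12:17266481-17266519, + strand, from −98 to −80): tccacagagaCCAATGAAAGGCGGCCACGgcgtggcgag
Calr (fell, −0.53, chr8:84847065-84847103, − strand, from −162 to −144): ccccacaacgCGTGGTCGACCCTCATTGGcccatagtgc
Dnajc3 (did not pass the test, 0.081, chr14:118937817-118937855, + strand, from −105 to −87): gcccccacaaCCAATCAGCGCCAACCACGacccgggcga
Canx (rose, 0.27, chr11:50325790-50325828, − strand, from −145 to −127): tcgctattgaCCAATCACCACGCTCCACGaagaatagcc
Creld2 (rose, 0.27, chr15:88819510-88819548, + strand, from −126 to −108): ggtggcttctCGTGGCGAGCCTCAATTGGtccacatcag
Syvn1 (rose, 0.31, chr19:6046522-6046560, + strand, from −44 to −26): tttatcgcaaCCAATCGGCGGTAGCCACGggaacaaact
Ero1b (rose, 0.60, chr13:12565672-12565710, + strand, from −201 to −183): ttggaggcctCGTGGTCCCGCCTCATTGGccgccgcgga
Herpud1 (rose, 0.51, ERSE-II, chr8:94386367-94386397, + strand, from −52 to −42): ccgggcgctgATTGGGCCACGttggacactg

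Genes with an ERSE moved in both directions, as did all genes tested, of which 39.9% rose and 39.4% fell. Of the 9 tested ER genes with an ERSE, 4 rose, 4 fell and 1 did not pass the test, with a median log2 fold change of 0.08 and a range from −1.21 to 0.60. Among the 27 with a window and no ERSE, 14 rose, 10 fell and 3 did not pass, with a median of 0.10. The 2 genes with an ERSE-II, Herpud1 and Dnajb11, a cochaperone of BiP, both rose. Over all tested genes of the transcriptome with an ERSE in their window, ER genes included, 6 of 16 rose, 6 fell and 4 did not pass. The element of Creld2 also lies in the window of Alg12, a mannosyltransferase of glycan assembly transcribed the other way, which rose by 1.99 on the log2 scale (adjusted p = 1.12e-10).

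**Figure D2:**
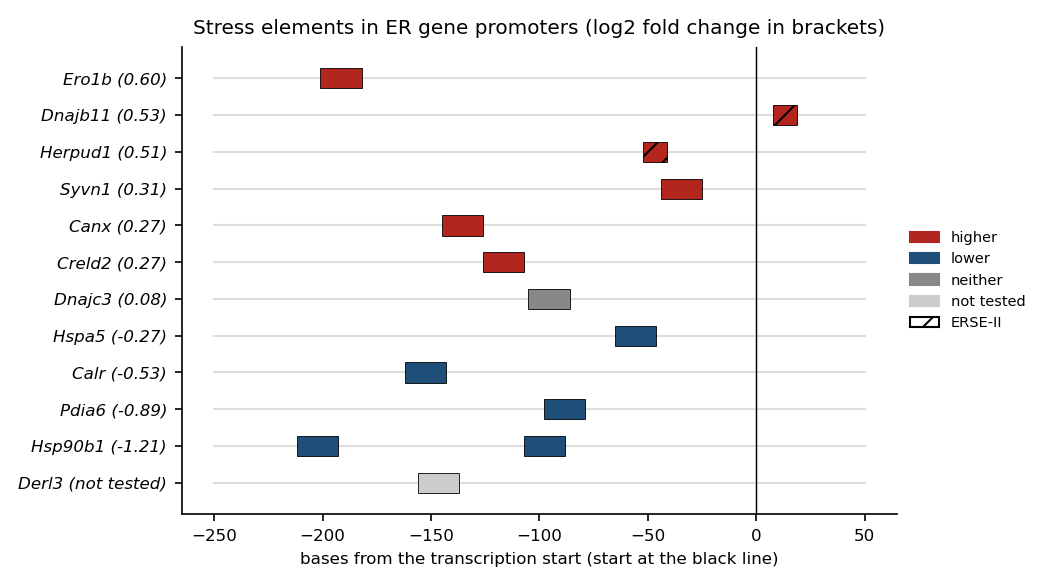
Position of each ERSE and ERSE-II relative to the transcription start (horizontal axis, bases), 1 line per gene, beside the log2 fold change of the gene after P3FI-90. Genes that rose and genes that fell both carry elements, and Hsp90b1 carries 2.

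Transcripts of the 3 stress sensors rose. Ern1 (ENSMUSG00000020715), which encodes IRE1, had 1555, 1628 and 1606 normalized counts in the DMSO libraries and 3409, 3372 and 3215 in the P3FI-90 libraries (log2 fold change 1.06, SE 0.049, adjusted p = 8.95e-11). Atf6 (ENSMUSG00000026663) had 3079, 3179.5 and 2881 after DMSO and 7338, 7078 and 6826 after P3FI-90 (log2 fold change 1.22, SE 0.044, adjusted p = 6.79e-12). Eif2ak3 (ENSMUSG00000031668), which encodes PERK, had 645, 699.7 and 660.3 after DMSO and 1706, 1751 and 1781 after P3FI-90 (log2 fold change 1.39, SE 0.06, adjusted p = 4.77e-11). Every P3FI-90 library was above every DMSO library for each of the 3, by 2.09-, 2.33- and 2.61-fold in the means. Atf6b, the paralog of Atf6, had 4463, 3708 and 4211 after DMSO and 3847, 4068 and 3679 after P3FI-90, overlapped between groups and did not pass the test (log2 fold change −0.10, SE 0.06, adjusted p = 0.159, 95% interval −0.23 to 0.034). Without DMSO replicate 2 it passed the test at −0.17 (adjusted p = 0.00514).

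Transcripts of Xbp1 and of the site-1 and site-2 proteases fell. Xbp1 (ENSMUSG00000020484), the target of IRE1, had 2419, 2616 and 2409 normalized counts after DMSO and 1546, 1445 and 1518 after P3FI-90, which was 0.606 of the DMSO level (log2 fold change −0.72, SE 0.053, adjusted p = 1.52e-08). The site-1 protease gene Mbtps1 had 12485, 12098 and 12735 after DMSO and 6369, 6603 and 6517 after P3FI-90 (log2 fold change −0.94, SE 0.034, adjusted p = 7.62e-12). The site-2 protease gene Mbtps2 fell from 3305 ± 116 to 2566 ± 229.6 normalized counts (SD, n = 3, log2 fold change −0.37, SE 0.06, adjusted p = 6.65e-05). The groups did not overlap for any of the 3 genes. In the GENCODE M21 models, 28.4% of the exonic bases of Mbtps2 also belong to Yy2, which lies on the same strand. Counting by strand would therefore not separate the reads of these bases. Yy2 had 10.9 normalized counts after DMSO and 42.2 after P3FI-90.

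Among the transcription factors, Crebrf rose most of all 42 genes. Crebrf (ENSMUSG00000048249), a regulator that acts on the stress factor CREB3, had 522, 576 and 482 normalized counts after DMSO and 2404, 2394 and 2384 after P3FI-90, a 4.56-fold difference (log2 fold change 2.19, SE 0.065, adjusted p = 1.16e-12). The spread among the P3FI-90 libraries was far smaller than the gap to the DMSO libraries. Creb3l2, which encodes a membrane-bound factor of the CREB family, rose from 759 ± 58.2 to 1043 ± 52.9 (log2 fold change 0.46, SE 0.075, adjusted p = 6.40e-05). In all, 5 of the 9 sensors, proteases and factors rose, 3 fell and 1 did not pass the test. Shares were 55.6% higher and 33.3% lower, against 39.9% and 39.4% of all genes tested. The median log2 fold change of the 9 genes was 0.46. Their counts were the same when libraries were scaled by total counts, although Atf6b then stood at 0.12.

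**Figure D3:**
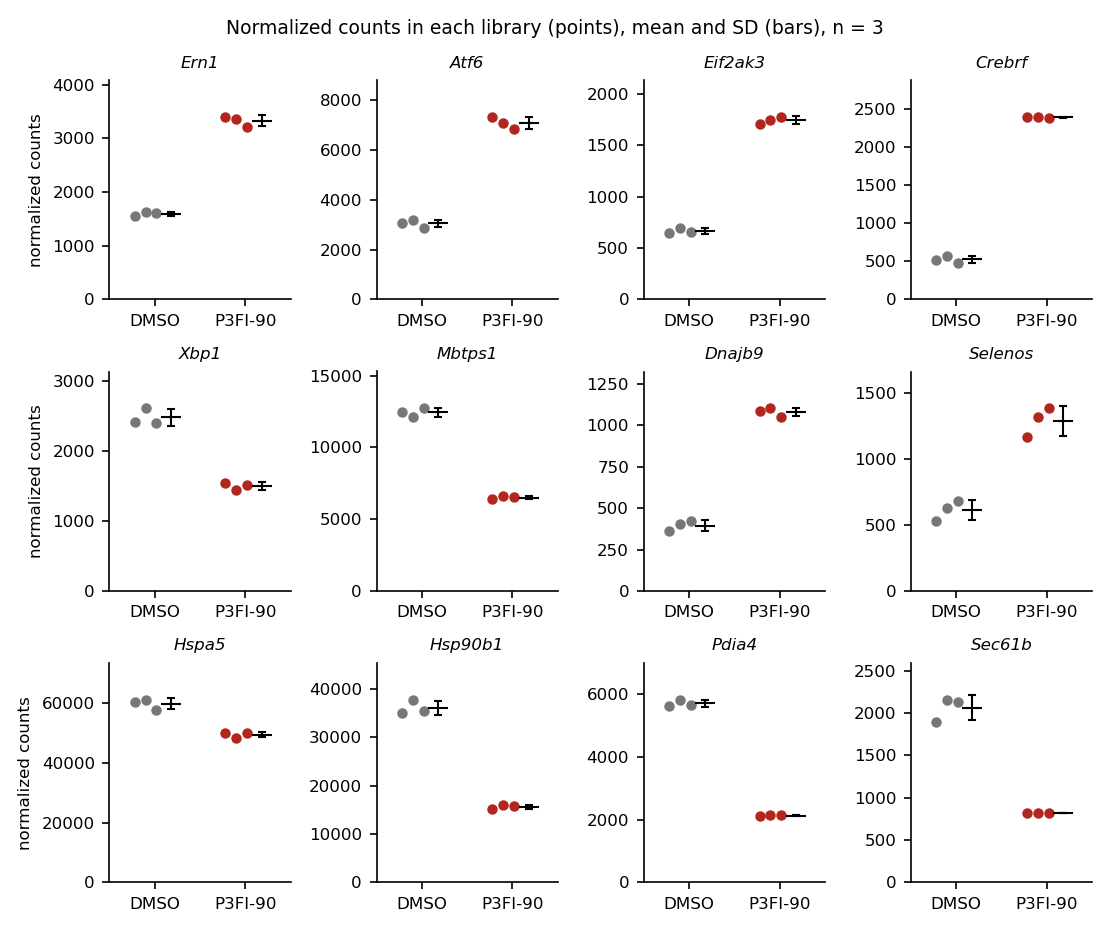
Normalized counts (vertical axes, each from 0) in every library for 12 of the ER genes, with points for the 3 libraries of each group and bars for mean and SD. The groups do not overlap in any panel: Ern1, Atf6, Eif2ak3, Crebrf, Dnajb9 and Selenos are higher after P3FI-90, and Xbp1, Mbtps1, Hspa5, Hsp90b1, Pdia4 and Sec61b are lower.

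The main lumenal chaperones fell. Hsp90b1 (ENSMUSG00000020048), which encodes the HSP90 of the ER, GRP94, had 35009, 37787 and 35482 normalized counts after DMSO and 15129, 15918 and 15856 after P3FI-90, 0.433 of the DMSO level (log2 fold change −1.21, SE 0.035, adjusted p = 8.94e-13). Hspa5 (ENSMUSG00000026864), which encodes BiP, the HSP70 that also holds the sensors inactive, had 60207, 61049 and 57541 after DMSO and 49724, 48347 and 49931 after P3FI-90 (log2 fold change −0.27, SE 0.028, adjusted p = 5.46e-07). The ratio of Hsp90b1 to Hspa5 counts within a library, which no scaling affects, did not overlap between groups and went from 0.606 ± 0.021 to 0.317 ± 0.0125 (SD, n = 3, exact p = 0.1, the smallest that 3 against 3 allows). Hspa5 was no longer past the threshold when libraries were scaled by total counts (log2 fold change −0.058, adjusted p = 0.0665), whereas Hsp90b1 was. A noncoding gene covers 10.3% of the exonic bases of Hsp90b1 in the reference models.

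The cofactors of BiP moved in different directions. Dnajb9 (ENSMUSG00000014905), which encodes ERdj4, the cochaperone that returns IRE1 to rest, had 359, 405 and 419 normalized counts after DMSO and 1086, 1104 and 1052 after P3FI-90, a 2.74-fold rise (log2 fold change 1.45, SE 0.08, adjusted p = 6.23e-10). Dnajb11, which encodes ERdj3, had 2924, 2965 and 3030.1 after DMSO and 4489, 4357 and 4044 after P3FI-90 (log2 fold change 0.53, SE 0.046, adjusted p = 8.55e-08). Dnajc10, which encodes the disulfide reductase ERdj5, fell from 8542 ± 383 to 6591 ± 8.67 (log2 fold change −0.37, SE 0.038, adjusted p = 4.36e-07). The ERdj3 partner gene Sdf2l1 also fell, with 823, 843 and 861 after DMSO and 597, 519.7 and 535 after P3FI-90 (log2 fold change −0.61, SE 0.079, adjusted p = 6.21e-06). No library of one group reached the range of the other for these 4 genes.

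The ER stress genes Manf and Creld2 changed, each its own way. Manf (ENSMUSG00000032575), which encodes a chaperone that is released from stressed cells, had 5129, 5581 and 5349.9 normalized counts after DMSO and 2884, 2841 and 3052 after P3FI-90 (log2 fold change −0.87, SE 0.044, adjusted p = 2.42e-10). Creld2, another ER protein that stress induces, rose from 1153 ± 114 to 1387 ± 52.6 (log2 fold change 0.27, SE 0.071, adjusted p = 0.00321). The remaining chaperones, the HSP70-like Hspa13, the cochaperone Dnajc3 (p58IPK) and the nucleotide exchange factor Hyou1, did not pass the test, at log2 fold changes of −0.09 (adjusted p = 0.0777, 95% interval −0.19 to 0.0057), 0.081 (adjusted p = 0.112, −0.016 to 0.18) and −0.061 (adjusted p = 0.127, −0.14 to 0.015). The libraries of these 3 genes did not overlap between groups either. Of the 11 chaperones and cofactors, 3 rose (27.3%), 5 fell (45.5%) and 3 did not pass, with a median of −0.09. Shares over all genes tested were 39.9% higher and 39.4% lower. Scaling by total counts instead gave 6 higher and 4 lower chaperones and cofactors and a median of 0.12. Total-count scaling called Hspa13 (0.12, adjusted p = 0.0206), Hyou1 (0.15, adjusted p = 0.00119) and Dnajc3 (0.29, adjusted p = 2.94e-05) higher, whereas upper-quartile scaling called Hspa13 (−0.13, adjusted p = 0.0161) and Hyou1 (−0.099, adjusted p = 0.0185) lower. Dnajc3 also passed as higher with at least 10 counts in every library (0.099, adjusted p = 0.0481), and Hspa13 as lower without DMSO replicate 1 (−0.12, adjusted p = 0.0456).

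Of the 4 isomerases on the list, Pdia3, Pdia4 and Pdia6 fell and P4hb did not pass the test. Pdia4 (ENSMUSG00000025823), which encodes ERp72, had 5622, 5821 and 5651 normalized counts after DMSO and 2103, 2144 and 2135 after P3FI-90, the deepest fall of all 42 genes at 0.373 of the DMSO level (log2 fold change −1.42, SE 0.038, adjusted p = 4.54e-13). Pdia6, which encodes the isomerase that tempers IRE1 and PERK, had 12339.9, 12942 and 12418 after DMSO and 6754, 6635 and 6969 after P3FI-90 (log2 fold change −0.89, SE 0.035, adjusted p = 1.66e-11). The partner of the lectin chaperones, Pdia3 (ERp57), fell from 30065 ± 1143 to 23147 ± 269 (log2 fold change −0.38, SE 0.032, adjusted p = 6.39e-08). For these 3 genes all P3FI-90 libraries were below all DMSO libraries. P4hb, which encodes PDI itself, had 27876, 27747 and 26891 after DMSO and 27788, 28347 and 27529 after P3FI-90, and the groups overlapped (log2 fold change 0.02, SE 0.028, adjusted p = 0.523, 95% interval −0.041 to 0.081). Its direction was not fixed. P4hb was called higher with total-count scaling (0.23, adjusted p = 2.27e-06), and stood at −0.019 under upper-quartile scaling and at −0.00036 without DMSO replicate 3.

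The oxidases that recharge PDI differed from each other in their calls. Ero1b had 510.0, 544 and 539 normalized counts after DMSO and 881, 709 and 817 after P3FI-90, with no overlap (log2 fold change 0.60, SE 0.09, adjusted p = 3.07e-05). Ero1a had 11596, 14051 and 11035 after DMSO and 12869, 12483 and 13430.5 after P3FI-90, and DMSO replicate 2 lay above all 3 P3FI-90 libraries (log2 fold change 0.081, SE 0.068, adjusted p = 0.284). Ero1a passed the test as higher without that library (0.19, adjusted p = 0.000801) and when libraries were scaled by total counts (0.30, adjusted p = 0.00117). Of the 6 disulfide enzymes, 1 rose (16.7%), 3 fell (50%) and 2 did not pass the test (median −0.18). Shares over all genes tested were 39.9% higher and 39.4% lower. Scaling by total counts gave 3 higher and 3 lower disulfide enzymes (median 0.036).

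The lectin chaperones moved in opposite directions. Calr (ENSMUSG00000003814), which encodes lumenal calreticulin, had 33042, 32271 and 32174 normalized counts after DMSO and 21735, 23391 and 22249 after P3FI-90 (log2 fold change −0.53, SE 0.032, adjusted p = 1.46e-09). Canx, which encodes its membrane-bound counterpart calnexin, had 18611, 19859 and 18675 after DMSO and 22849, 22825 and 23355 after P3FI-90 (log2 fold change 0.27, SE 0.032, adjusted p = 2.53e-06). Neither pair of groups overlapped, and both directions were kept when libraries were scaled by total counts. The 2 genes together took 0.136% ± 0.00173 of counts after DMSO and 0.14% ± 0.00255 after P3FI-90 (SD, n = 3, exact p = 0.2).

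ERAD genes rose more often than they fell, 7 against 2 of the 9 tested (77.8% and 22.2%). Of all genes tested, 39.9% rose and 39.4% fell. The median log2 fold change of the ERAD genes was 0.49. Selenos (ENSMUSG00000075701), a selenoprotein that links the membrane channel to the ATPase p97, had 533, 631 and 679.7 normalized counts after DMSO and 1168, 1319 and 1389 after P3FI-90, a 2.10-fold rise (log2 fold change 1.07, SE 0.093, adjusted p = 8.54e-08). Derl1, which encodes a derlin of the exit channel, had 6030.3, 6282 and 6015 after DMSO and 9978, 9458 and 9664 after P3FI-90 (log2 fold change 0.67, SE 0.035, adjusted p = 4.21e-10). Its relative Derl2 had 1759.8, 1904 and 1831 after DMSO and 2801, 2663 and 2876 after P3FI-90 (log2 fold change 0.60, SE 0.052, adjusted p = 8.92e-08). The P3FI-90 libraries of these genes were all above the DMSO libraries. Herpud1, which encodes the ubiquitin-like scaffold of the ligase complex, had 2098, 2156 and 1990.2 after DMSO and 3082, 2849 and 2960.4 after P3FI-90 (log2 fold change 0.51, SE 0.051, adjusted p = 4.42e-07).

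The ligase core rose as well, while Edem1 and Edem2 fell. Syvn1, which encodes the ubiquitin ligase HRD1, rose from 1355 ± 48.9 to 1684 ± 10.6 normalized counts (log2 fold change 0.31, SE 0.052, adjusted p = 6.73e-05), and its partner Sel1l from 2825 ± 98.2 to 3919.8 ± 58.6 (log2 fold change 0.47, SE 0.043, adjusted p = 1.46e-07). Os9, a lectin that brings glycoproteins to the ligase, rose from 2026 ± 70.3 to 2841 ± 111 (log2 fold change 0.49, SE 0.051, adjusted p = 6.73e-07). By contrast Edem1 fell from 2880.3 ± 64.9 to 2499 ± 100.3 (log2 fold change −0.20, SE 0.048, adjusted p = 0.00134) and Edem2 from 2285 ± 111 to 1769.6 ± 17.8 (log2 fold change −0.37, SE 0.051, adjusted p = 1.27e-05), both mannosidase-like factors that mark glycoproteins for disposal. No group of these 5 genes overlapped the other. Edem1 stood at 0.0097 with total-count scaling, which left 7 ERAD genes higher and 1 lower. The 10 ERAD genes took 0.0583% ± 0.000249 of all counts after DMSO and 0.0905% ± 0.00117 after P3FI-90 (SD, n = 3, exact p = 0.1).

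Of the 4 other ER membrane proteins, 3 rose (75%) and 1 fell (25%), against 39.9% and 39.4% of all genes tested. Sec61b (ENSMUSG00000053317), the beta subunit of the translocon through which new proteins enter the ER, had 1894, 2158 and 2135 normalized counts after DMSO and 823, 816 and 819.9 after P3FI-90, 0.398 of the DMSO level (log2 fold change −1.33, SE 0.062, adjusted p = 1.01e-10). Wfs1, which encodes wolframin, a membrane protein of ER calcium balance, had 319, 338 and 342 after DMSO and 536, 545 and 642 after P3FI-90 (log2 fold change 0.79, SE 0.1, adjusted p = 7.05e-06). The selenoprotein gene Selenok rose, with 1657, 1869 and 1649 after DMSO and 2001, 2055 and 1973 after P3FI-90 (log2 fold change 0.22, SE 0.057, adjusted p = 0.00266). Ssr1, which encodes a translocon-associated subunit, rose from 9158 ± 78.3 to 9832 ± 282 (log2 fold change 0.10, SE 0.033, adjusted p = 0.0117). All 4 genes kept their groups apart, as did 81.2% of all genes tested. The call of Ssr1 was lost under upper-quartile scaling (0.064, adjusted p = 0.0968) and without P3FI-90 replicate 1 (0.077, adjusted p = 0.0702). In the reference, 17.4% of the 50-base windows of Sec61b and 12.7% of those of Selenok recur in another gene, so part of their reads may be shared. Shared windows reached 5% in 9 of the 42 genes, and 23 had none.

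Transcripts of the lumenal chaperones and isomerases were the most abundant of the ER genes per length. In normalized counts per kilobase of exon after DMSO, Hspa5 stood first at 14093, followed by Calr (11283), P4hb (9614), Pdia3 (9578) and Hsp90b1 (8952), and after P3FI-90 Hspa5 was still first at 11666 and Hsp90b1 sixth at 3878. P4hb and Pdia3 differed after DMSO by less than the spread between libraries. Of the tested genes Crebrf was the lowest, at 61.5 after DMSO. Falls were more frequent among the abundant genes. Among the 14 genes highest after DMSO, 2 rose, 9 fell and 3 did not pass (median log2 fold change −0.38), among the middle 13 there were 6, 4 and 3 (0.08), and among the lowest 14 there were 12, 2 and 0 (0.69).

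Falls were also more frequent among the abundant genes of the whole transcriptome. Of all tested genes with a length, 26.4% of the 4088 highest after DMSO rose and 61.4% fell (median −0.30), against 46.0% and 36.7% of the middle 4087 (0.08) and 47.4% and 20.2% of the lowest 4088 (0.39). The ER genes in these classes numbered 26 (8 rose, 13 fell), 10 (7 and 2) and 5 (5 and 0). Exon length moved with direction too, with medians of 4776 bases for the 20 ER genes that rose and 3524 for the 15 that fell, beside 5299.5 and 3890.5 for all genes. Level after DMSO is also the base of the fold change, which by itself tilts low genes toward rises and high genes toward falls. The filter adds to this over all genes, as a gene near 0 after DMSO was tested only if high after P3FI-90. The size of this tilt, and the part of level and length in the changes of the ER genes, was not tested.

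**Figure D4:**
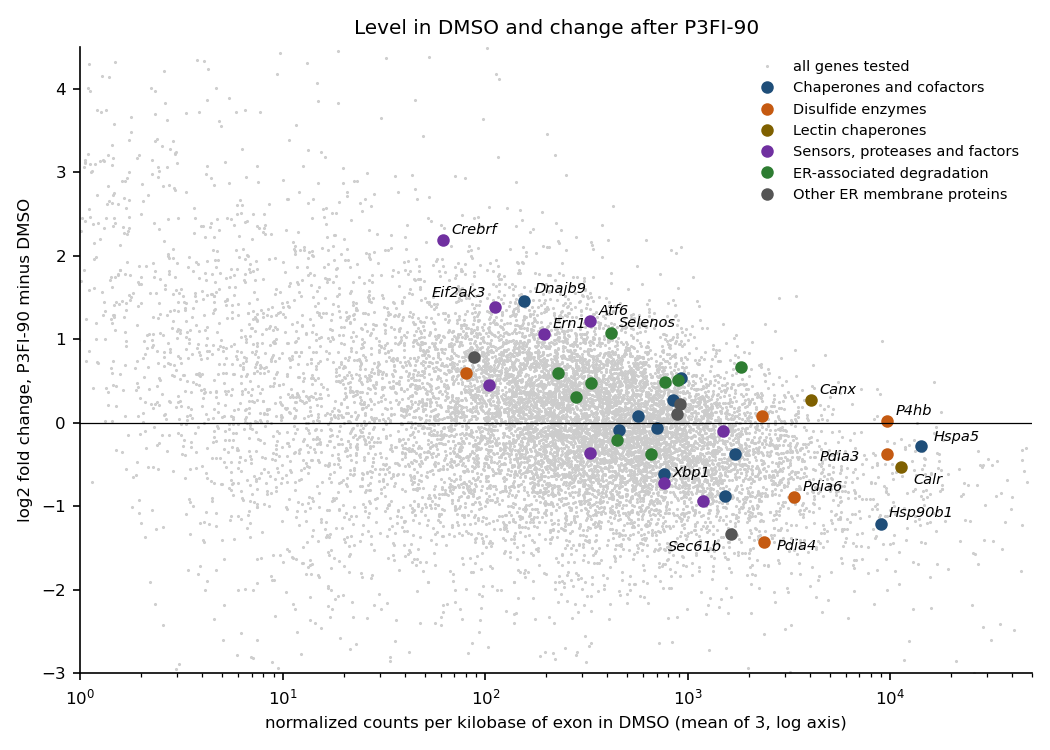
Log2 fold change (vertical axis, P3FI-90 minus DMSO) against level after DMSO (horizontal log axis, normalized counts per kilobase of exon, mean of 3 libraries) for all genes tested (grey) and the ER genes (colored by role); genes outside the axes are not drawn. Crebrf, Eif2ak3 and Dnajb9 lie high on the left, and Hspa5, Calr and Hsp90b1 lie below 0 on the right.

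Further genes of the pathway, listed from general knowledge, numbered 121, of which 115 were tested, 55 rose (47.8%) and 44 fell (38.3%), with a median log2 fold change of 0.11. Genes of the integrated stress response, which PERK and other kinases start through eIF2α and ATF4, rose in 13 of 14 cases (92.9%, median 0.92). Of all genes tested, 39.9% rose. Beside output genes, the list holds Atf4 itself and Ppp1r15b. Ddit3, which encodes the factor CHOP, rose from 193 ± 0.608 to 3504 ± 156 normalized counts (log2 fold change 4.18, SE 0.063, adjusted p = 2.54e-15), and Ppp1r15a, which encodes GADD34, the subunit that reverses eIF2α phosphorylation, from 341 ± 32.3 to 5947 ± 194 (log2 fold change 4.12, SE 0.064, adjusted p = 3.08e-15). Atf3, Atf5 and the kinase-like Trib3 rose by 3.64, 2.60 and 1.15 on the log2 scale (adjusted p = 2.22e-13, 2.26e-13 and 4.77e-11). Atf4 itself rose by 0.56 (adjusted p = 1.06e-08). The gene that fell was Cebpb, named after its values were seen (−0.78, adjusted p = 1.31e-07).

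The other ER lists also held genes of both directions, where 39.9% of all genes tested rose and 39.4% fell. Among 32 further folding genes tested, 9 rose and 16 fell (median −0.19), and the rule for naming genes picked Mogs (−1.44), the first glucosidase of glycan trimming, Serpinh1 (−1.18), the collagen chaperone, Prdx4 (−1.14), an ER peroxidase, and Tmx2 (1.30), a membrane thioredoxin. Among 24 further ERAD genes, 16 rose and 5 fell (median 0.41). They included Edem3 (1.25) and the ubiquitin-conjugating Ube2g2 (1.05), but Vcp, which encodes the ATPase p97, fell from 21301 ± 687 to 8019 ± 50.8 normalized counts (log2 fold change −1.41, SE 0.033, adjusted p = 1.14e-13), and the ligase Rnf5 fell too (−1.60, adjusted p = 4.63e-10). The translocon, signal peptidase and oligosaccharyltransferase genes, with 9 higher and 13 lower of 25 (median −0.14), included Ostc (−1.12), Ssr4 (−1.03), Tmem258 (−0.79) and Sec61g (−0.67), all lower like Sec61b. Sec61a1, named after its values were seen, was higher (0.33, adjusted p = 1.26e-06). Among 20 further signaling genes, 8 rose and 9 fell (median −0.08), with Ddrgk1 at 1.03, Traf2 at 0.98, Zbtb8os at −0.98 and Bak1 at −0.87. Scaling by total counts turned the counts of higher and lower genes to 15 and 13 for folding, 12 and 7 for the translocon group and 10 and 6 for signaling, and turned their medians to 0.028, 0.076 and 0.13.

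**Figure D5:**
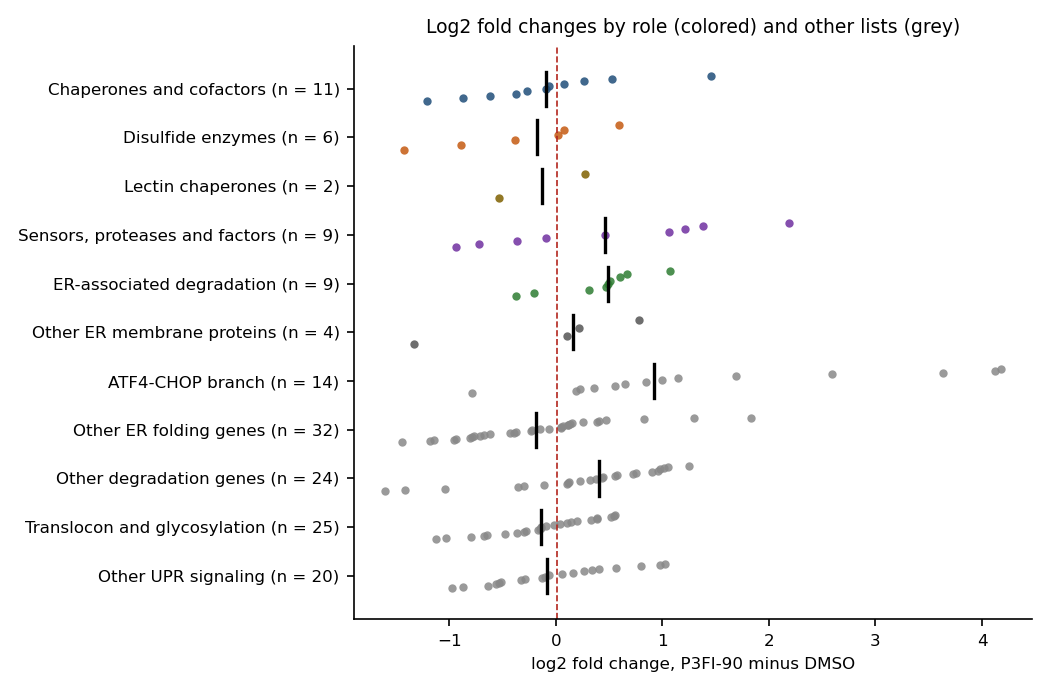
Log2 fold change (horizontal axis, P3FI-90 minus DMSO) of every tested gene of each role (colored) and of each further list (grey), with a bar at the median. Medians lie above 0 for the integrated stress response (0.92), ERAD (0.49), sensors, proteases and factors (0.46), further ERAD genes (0.41) and other ER membrane proteins (0.16). They lie below 0 for further folding genes (−0.19), disulfide enzymes (−0.18), the translocon group (−0.14), lectin chaperones (−0.13), chaperones (−0.09) and further signaling genes (−0.08). When libraries are scaled by total counts, the medians below 0 turn to 0.028, 0.036, 0.076, 0.084, 0.12 and 0.13, in that order.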

How the data were processed

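RNA of 4T1 cells was extracted with TRIzol, made into 6 libraries with an Illumina mRNA kit and sequenced on an Illumina NovaSeq instrument. The authors deposited whole-number read counts per gene, unnormalized, for all 6 libraries in 1 table. The submitters' processing notes name CASAVA, HISAT2, StringTie and the mouse build GRCm39, and the counting program, its annotation and its use of strand are not given in the sources used here. The study's methods name limma for the comparison. Counts without strand cannot separate overlapping genes of opposite strands, and use of strand does not separate those on the same strand, such as Mbtps2 and Yy2.

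Of 22401 rows, 296 of assembled transcripts were left out of library sizes and tests (0.483% to 0.556% of counts per library). Genes were filtered with filterByExpr, scaled by TMM and tested with edgeR 4.0.16 in R 4.3.3 (glmQLFit and glmQLFTest on the counts, no covariate, Benjamini-Hochberg over 12288 genes, threshold 0.05). Normalized counts are counts per effective library size, multiplied by the mean effective size of 35064347. Library totals of 31327094 to 37395732 counts set the precision of each value. Values in parentheses after a log2 fold change are its standard error (SE) and adjusted p.

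Genes and lists were chosen with earlier results of these data known, so no list was given a test of its own. Genes of the ER list were described in full if called with an absolute log2 fold change of at least 0.5, or if they were Xbp1, Ern1, Atf6 or Eif2ak3. In each further list, the text names up to 4 called genes of largest absolute change whose groups stood apart and reached 100 normalized counts, and Atf4, Ddit3, Ppp1r15a and Trib3 in any case. Cebpb and Sec61a1 were named outside this rule. Exon lengths, overlaps and 50-base windows came from GENCODE M21 and promoters from RefSeq, both on GRCm38, from which no coordinates were combined with the GRCm39 counts. Single values per library were compared with exact two-sided permutation tests.

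Equally numbered libraries did not deviate together (correlations −0.0214, 0.015 and 0.00491), and no pairing was used. The labels do not state a pairing, and these correlations cannot exclude one. Alternatives were DESeq2 1.42.0 (size factors and test), total-count and upper-quartile scaling, no filter, at least 10 counts in every library, limma 3.58.1 (voom, and log2 of CPM plus a pseudocount of 1), a replicate block, assembled transcripts kept, and leaving out each library. The fits were also run on simulated counts in which few genes changed, in equal numbers up and down. That run cannot decide between the scalings, and its outcome is not given here. A planned count of genes whose protein ends in an ER retrieval signal was not run, as it needs protein sequences that were not used here.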

Additional observations from a re-analysis of the deposited data

How the results depend on the processing

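Of 656 pairs of an ER gene and an alternative, 638 kept direction and side of the threshold, and 32 of the genes did so under all 16 alternatives. Scaling by total counts moved most. It gave 6179 higher and 3641 lower genes of all tested (62.9% higher of those called, against 50.3% with TMM), a median of 0.30 for the ER genes, 6 higher chaperones, 3 higher disulfide enzymes, 15 higher genes among further folding genes, 1 lower ERAD gene, 3 lower among further ERAD genes and 7 lower in the translocon group. Under it Hspa13 turned to 0.12, Hyou1 to 0.15, Atf6b to 0.12 and Edem1 to 0.0097, Hspa5 and Edem1 lost their calls, and Hspa13, Hyou1, Dnajc3, P4hb and Ero1a were called higher. P4hb turned to −0.019 under upper-quartile scaling and ran from −0.00036 (without DMSO replicate 3) to 0.026 when 1 library was left out. Hspa13 and Hyou1 were called as lower under upper-quartile scaling, and Dnajc3 as higher with at least 10 counts in every library. Leaving out 1 library gave 1 to 2 higher disulfide enzymes, the higher count without DMSO replicate 2, where Ero1a was called and Atf6b was called lower (−0.17), and Hspa13 was called without DMSO replicate 1 (−0.12). With the replicate number as a block, 4802 genes were higher and 4722 lower, and the 20 higher and 15 lower ER genes were called as without it. Derl3 could be tested only without a filter (0.64, adjusted p = 0.703). The causes of these differences were not tested. The count of genes with a retrieval signal was not run.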
